A study of Mus musculus with 6 samples.

Results

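The genes described here drive the division of a cell into 2: 49 mouse genes of mitosis, of the kinetochore and of cytokinesis, taken by gene symbol from a deposited table of 54532 genes. All 49 had a row, and all passed the filter on low values. They were read in 6 RNA sequencing libraries. The libraries labelled aged, 3 in number, come from mice of 18 months, and the libraries labelled young, also 3, from mice of 3 months. The labels give the tissue as lung for every library, and the labels and design text used here name no strain, genotype or treatment. Nothing states that each library is a different mouse, so the spread behind every p-value is that between libraries and may be technical. The design asks which transcripts differ between the ages.

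As background, a cell enters mitosis when the kinase Cdk1, bound to a B-type cyclin, is switched on by Cdc25 phosphatases that undo the inhibition by Wee1. Condensin and topoisomerase II then shape the chromosomes, the kinetochore ties each centromere to spindle microtubules, and the spindle checkpoint holds back the anaphase-promoting complex until every chromosome is attached. Once that complex, with its partner Cdc20, has marked securin and cyclin B for destruction, the chromosomes part and a contractile ring divides the cell. Transcripts of most of these genes are made late in the cell cycle. In adult lung few cells divide, so they are usually low there.

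The libraries held 16649061 to 16906850 recovered reads in the group labelled aged and 17266815 to 17456715 in the group labelled young. Their contents went against the tissue label. Of 10 alveolar markers, 6 stood at 1 FPKM or less in every library (FPKM, fragments counted per length of gene and per total of the library), as did all 5 airway, all 6 endothelial and all 4 red cell markers. The alveolar markers summed to 95.7 to 104 FPKM in the libraries labelled aged, against at most 52.9 FPKM in those labelled young. Pdpn made up most of this, at 92.4 against 38.4 FPKM. Hopx went the other way, at 5.97 against 10.15 FPKM (limma adjusted p = 7.61e-05), and Abca3, Ager and Rtkn2 did not pass the threshold. In the same order, the 5 cardiac markers summed to between 7.0 and 10 FPKM, against 4.56 to 5.09 FPKM, nearly all of it Tnnt2. Leukocyte markers summed to 34.6 to 35.2 FPKM in the libraries labelled aged, against 9.85 to 12.2 FPKM in those labelled young, nearly all from Cd68 and Lyz2, while Ptprc, which defines leukocytes, reached at most 0.0953 FPKM. Fibroblast markers summed to 422 to 470 FPKM in the libraries labelled aged, against 667 to 691 FPKM in those labelled young, most of it Col1a1 and Col1a2. Of the 9 genes, Col1a1, Col1a2, Col3a1 and Pdgfra were lower in the libraries labelled aged. Pdgfrb was slightly higher there, at 23.4 against 21.4 FPKM, and 4 genes, Dcn, Lum, Tcf21 and Thy1, stayed at 1 FPKM or less. The part of these markers in the differences given here was not tested. Kidney markers summed to 1.17 to 1.74 FPKM in the libraries labelled aged, against 130, 0.643 and 26.0 FPKM in young replicates 1, 2 and 3, so counts are also given without replicates 1 and 3 labelled young. In bulk RNA, a different share of dividing cells and a different amount of RNA per dividing cell cannot be told apart.

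The 49 genes were abundant in all 6 libraries. No library held less than 10 FPKM of 46 of these genes, and the fewest recovered reads for any gene in any library were 371, for Cdc25c. Cks1b, a small protein that docks on cyclin-dependent kinases, led in both groups at 162 ± 9.69 FPKM in the libraries labelled aged and 131 ± 7.06 FPKM in those labelled young (SD over the 3 libraries of a group, as for every ± of a level). Cdc25a, a phosphatase that activates cyclin-dependent kinases, was the lowest at 4.70 ± 0.284 against 4.10 ± 0.225 FPKM. Libraries of a group were close, with a median coefficient of variation over the 49 genes of 3.05% in the group labelled aged and 2.48% in the group labelled young. Together the 49 genes took 0.956%, 0.966% and 0.981% of recovered reads in the libraries labelled aged, against 0.859%, 0.846% and 0.856% in those labelled young. Their summed level was 2122 to 2123 FPKM in the libraries labelled aged, against 1808 to 1848 FPKM in those labelled young, with no overlap.

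Most of the 49 transcripts were higher in the libraries labelled aged, by small folds, and a minority that included Mki67, Cdc25b and Wee1 was lower. By limma at an adjusted p under 0.05, 35 were higher, 9 lower and 5 did not pass the threshold (Cdc25a, Incenp, Cenpe, Top2a and Racgap1). Over all 15197 tested genes, 27.7% were higher and 32.3% lower by the same rule, 60.0% in all. The median log2 fold change was 0.23 for the 49 genes and -0.03 for all tested genes, on the log2(FPKM + 1) scale. For 37 genes every library labelled aged was above every library labelled young, and for 10 every one was below; the shares over all tested genes were 31.3% and 35.6%. The sizes were modest: Aurka, Ccnb1, Smc2 and Ube2c were the 4 of the 49 that rose at least 1.5-fold in mean FPKM and none was lower by that much, whereas 15.5% of all tested genes were higher and 15.5% lower by that much. Without replicates 1 and 3 labelled young, 26 were higher and 6 lower, with a median of 0.25, where 19.3% of all tested genes were higher and 21.7% lower in the same fit. The 12 genes that lost their call there were Cks2, Cdc25c, Bub1b, Ttk, Cenpf, Spc24, Plk1, Plk4, Ncapd2, Espl1, Prc1 and Cit. Leaving out 1 library at a time left 31 to 32 higher and 9 to 10 lower. The same fits called 3764 to 4030 higher and 4363 to 4678 lower of the 15197 tested genes.

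**Figure D1:**
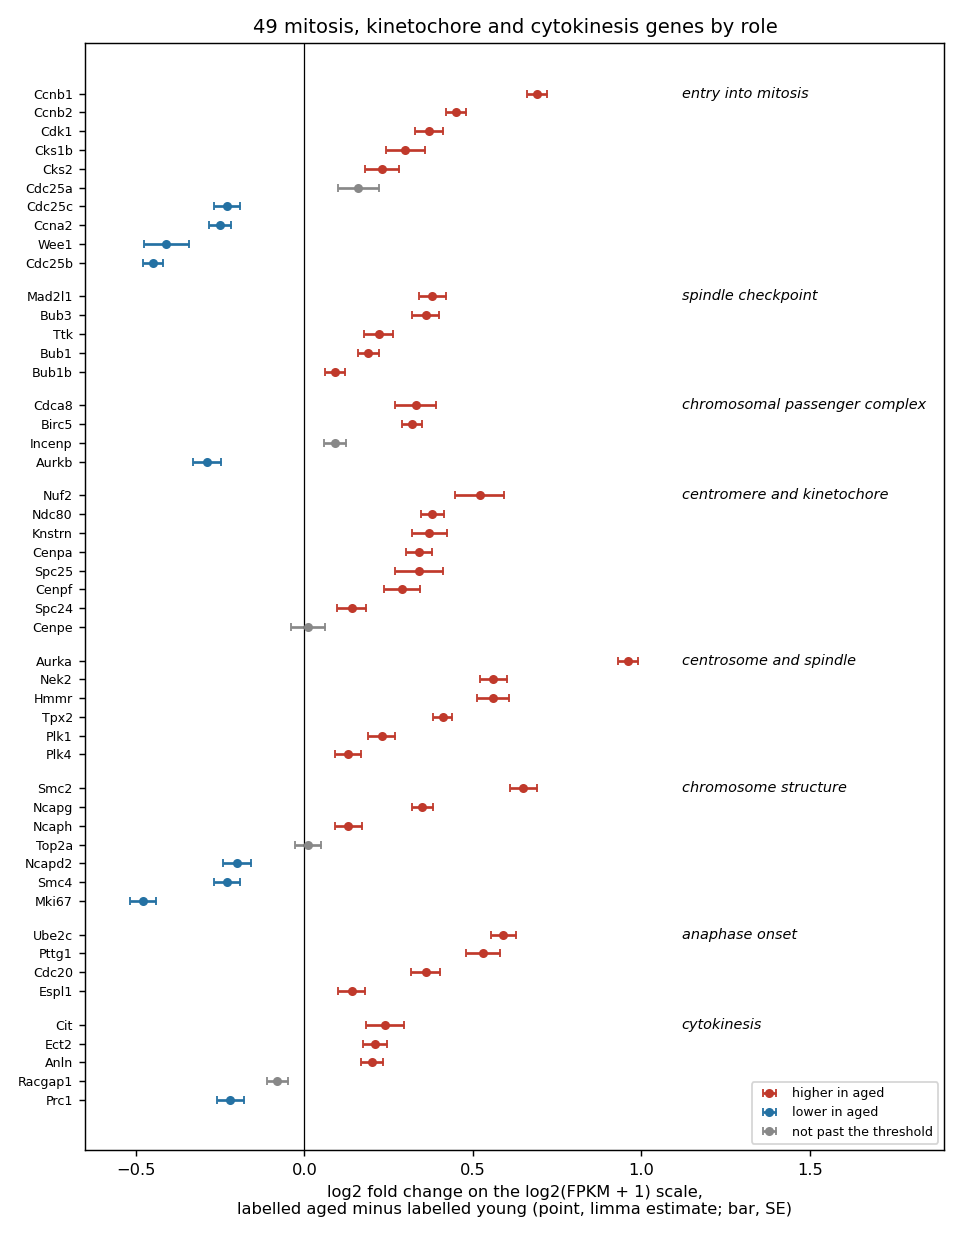
Log2 fold change of each of the 49 genes on the log2(FPKM + 1) scale, labelled aged minus labelled young, grouped by role, where points are limma estimates and bars their standard errors. Points of genes higher in the libraries labelled aged (35) lie right of 0, and those of lower genes (9) are found among entry, passenger, chromosome structure and cytokinesis genes.

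The start regions of these genes carry sequence letters in common that the choice of genes did not use. Many promoters of late cell cycle genes hold CCAAT boxes, which bind the factor NF-Y, and a cell cycle homology region, which is read TTTGAA or TTCGAA and is bound by Lin54 in complexes that repress or activate the gene. RefSeq windows from 250 bases before to 50 bases after a start (GRCm38.p6, the assembly of mm10) were found for 41 of the 49 genes, 44 windows in all. TTTGAA or TTCGAA, on either strand, was present in 31 of the 44 windows (70.5%) and in 19.2% of all 32851 windows of the genome. CCAAT, on either strand, was present in 34 (77.3%), against 37.4% of all windows. Both kinds were found in 29 windows (65.9%), against 7.52% of all windows. Both kinds were in 22 of 35 windows of higher genes and in all 5 windows of the 4 lower genes that had one. TTCGAA reads the same on both strands, CCAAT and a hexamer can share no more than an end letter, and a match is a description of letters, not a binding site.

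Windows are shown for the members with the largest rises and falls that had one, to let the spacing of the boxes be read. Capitals mark the CCAAT letters and the homology region letters named above, as found on either strand, in windows read 5′ to 3′ on the strand of the gene. Aurka lies on the minus strand (chr2:172370521-172370820), Ccnb1 on the minus strand (chr13:100786437-100786736), Mki67 on the minus strand (chr7:135716330-135716629) and Cdc25b on the plus strand (chr2:131186698-131186997).
Aurka: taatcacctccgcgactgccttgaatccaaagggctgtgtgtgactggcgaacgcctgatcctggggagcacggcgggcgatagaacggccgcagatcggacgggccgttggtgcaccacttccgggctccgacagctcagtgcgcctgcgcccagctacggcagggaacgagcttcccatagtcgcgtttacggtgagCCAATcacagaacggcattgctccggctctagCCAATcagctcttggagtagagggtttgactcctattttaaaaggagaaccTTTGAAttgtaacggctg
Ccnb1: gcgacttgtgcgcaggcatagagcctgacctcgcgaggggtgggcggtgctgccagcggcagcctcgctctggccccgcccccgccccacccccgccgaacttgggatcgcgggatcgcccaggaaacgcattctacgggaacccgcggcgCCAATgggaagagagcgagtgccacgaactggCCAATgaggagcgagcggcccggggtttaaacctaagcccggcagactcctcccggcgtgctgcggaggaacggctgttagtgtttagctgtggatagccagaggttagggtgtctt
Mki67: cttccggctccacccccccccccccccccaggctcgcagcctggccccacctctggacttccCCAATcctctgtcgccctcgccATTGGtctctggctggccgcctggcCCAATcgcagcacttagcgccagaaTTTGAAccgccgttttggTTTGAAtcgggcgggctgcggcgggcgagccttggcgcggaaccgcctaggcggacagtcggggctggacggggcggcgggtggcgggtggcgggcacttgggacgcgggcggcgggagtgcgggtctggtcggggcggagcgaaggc
Cdc25b: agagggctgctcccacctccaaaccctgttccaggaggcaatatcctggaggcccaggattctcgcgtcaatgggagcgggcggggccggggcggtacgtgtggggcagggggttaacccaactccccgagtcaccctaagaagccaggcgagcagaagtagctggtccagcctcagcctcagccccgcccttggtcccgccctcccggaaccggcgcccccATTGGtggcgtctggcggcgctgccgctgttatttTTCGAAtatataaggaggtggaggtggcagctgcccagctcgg
In the Aurka window, CCAAT starts 51 and 19 bases before the transcript start and a hexamer at base 33 of the transcript. The Ccnb1 window has CCAAT at 99 and 67 bases before the start and neither hexamer. Mki67 carries hexamers at 116 and 98 bases before the start, downstream of its 3 CCAAT boxes, and Cdc25b carries one at base 8 of the transcript. Starts here are those of RefSeq, and the deposited gene spans of Aurka, Ccnb1 and Mki67 begin at other bases. A box placed before or after a start here can lie otherwise against those spans.

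Among genes of entry into mitosis, the B cyclins, Cdk1 and the Cks proteins were higher in the libraries labelled aged, while cyclin A2, Wee1 and the phosphatases Cdc25b and Cdc25c were lower. Of 10 genes, 5 rose, 4 fell and 1 did not pass. The shares over all tested genes, for this role and each role below, were 27.7% higher and 32.3% lower. Ccnb1, cyclin B1, which activates Cdk1 at mitosis (chromosome 13, 100778650 to 100786570, minus strand, mm10), had 66.8, 68.8 and 69.2 FPKM in the libraries labelled aged, against 42.4, 42.0 and 41.8 FPKM in those labelled young. It rose 1.62-fold with no overlap (limma log2 fold change 0.69 ± 0.03 SE, adjusted p = 7.08e-06). Ccnb2, cyclin B2, rose 1.37-fold to 86.6 ± 1.95 FPKM, against 63.3 ± 0.913 FPKM in the libraries labelled young. Cdk1 itself averaged 35.0 ± 0.845 FPKM against 26.9 ± 1.27 FPKM (limma adjusted p = 0.000351).

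Ccna2, cyclin A2, which serves S phase and the approach to mitosis, went the other way, at 39.0, 39.1 and 37.6 FPKM in the libraries labelled aged and 46.3, 45.1 and 46.9 FPKM in those labelled young. The groups did not overlap (limma log2 fold change -0.25 ± 0.03 SE, adjusted p = 0.000579). The level of Ccnb1 divided by that of Ccna2, which does not depend on library scaling, was 1.71 to 1.84 in the libraries labelled aged, against 0.892 to 0.930 in those labelled young. This and the other ratios of partners below, 8 pairs in all, were chosen after values were seen and carry no test.

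Cdc25b, a phosphatase that starts Cdk1 activation (chromosome 2, 131186949 to 131198497, plus strand), had 26.8, 26.2 and 27.1 FPKM in the libraries labelled aged and 37.0, 36.9 and 36.4 FPKM in those labelled young. It was 1.38-fold lower (limma log2 fold change -0.45 ± 0.03 SE, adjusted p = 3.17e-05). Wee1, the kinase that holds Cdk1 inactive and so acts against Cdc25, was lower as well, at 17.2, 15.6 and 18.2 FPKM in the libraries labelled aged and 22.2, 24.3 and 21.9 FPKM in those labelled young (limma adjusted p = 0.00183). Cdc25c, which acts on Cdk1 at mitotic entry, had 11.4, 11.3 and 11.9 FPKM against 13.9, 13.3 and 13.8 FPKM (limma adjusted p = 0.00231). Every library labelled aged was below every library labelled young for these 3 genes. Without replicates 1 and 3 labelled young, the adjusted p of Cdc25c was 0.0690. Cdc25a, the family member that also serves S phase, did not pass (limma adjusted p = 0.0561), although its values did not overlap. It was called higher without replicate 3 labelled aged (0.0317), with median centring (0.0162), quantile normalization (0.0170), rescaling to TPM (0.0401) and in the voom fit of recovered reads (0.0171). Its level over that of Cdc25b was 0.162 to 0.186 in the libraries labelled aged, against 0.105 to 0.115 in those labelled young. Cks2 averaged 105 ± 6.55 FPKM against 88.7 ± 1.92 FPKM and rose along with Cks1b, with adjusted p of 0.00609 for Cks2 and 0.00378 for Cks1b by limma. The level of Cks1b over that of Cks2 overlapped between the groups, at 1.60, 1.47 and 1.58 in the libraries labelled aged and 1.39, 1.52 and 1.53 in those labelled young.

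All 5 spindle checkpoint genes rose. Mad2l1, which binds and restrains Cdc20, had 24.2, 25.8 and 23.5 FPKM in the libraries labelled aged and 18.6, 18.5 and 18.6 FPKM in those labelled young. This was a 1.32-fold rise (limma log2 fold change 0.38 ± 0.04 SE, adjusted p = 0.000242). Bub3, the adaptor that brings checkpoint kinases to the kinetochore, averaged 21.5 ± 0.429 against 16.6 ± 0.682 FPKM. Bub1, a kinetochore kinase, rose 1.14-fold and Ttk (Mps1), the kinase that starts the checkpoint signal, 1.18-fold. Bub1b (BubR1), which together with Mad2 blocks the anaphase-promoting complex, changed little, with 32.5, 32.2 and 33.1 FPKM in the libraries labelled aged and 30.7, 29.9 and 31.0 FPKM in those labelled young. Its limma adjusted p was 0.0373, and it did not pass when any of the 6 libraries was left out (0.0537 to 0.127).

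The chromosomal passenger complex was uneven. Aurkb, its kinase (Aurora B; chromosome 11, 69045647 to 69051664, plus strand), was lower, at 33.7, 33.1 and 33.9 FPKM in the libraries labelled aged against 39.4, 41.2 and 43.5 FPKM in those labelled young, with no overlap (limma log2 fold change -0.29 ± 0.04 SE, adjusted p = 0.000981). Its partners Cdca8 and Birc5 rose. Cdca8 (borealin), which helps place the complex at the centromere, had 25.6, 23.5 and 23.3 FPKM in the libraries labelled aged and 17.6, 18.9 and 20.4 FPKM in those labelled young (limma adjusted p = 0.00323). Birc5 (survivin), a subunit that reads a histone mark at the centromere, averaged 51.3 ± 1.14 against 40.9 ± 0.305 FPKM (limma adjusted p = 0.000139). Incenp, the scaffold of the complex, had 57.4 ± 1.19 against 54.0 ± 1.38 FPKM and did not pass (limma adjusted p = 0.0559), although it was called higher with median centring (0.00641) and after rescaling to TPM (0.0287). The level of Birc5 over that of Aurkb averaged 1.53 in the libraries labelled aged and 0.990 in those labelled young.

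Centromere and kinetochore genes rose in 7 of 8 cases. Nuf2, a subunit of the Ndc80 complex that grips microtubules, had 15.5, 16.5 and 17.0 FPKM in the libraries labelled aged and 12.0, 11.3 and 9.91 FPKM in those labelled young, a 1.47-fold rise (limma log2 fold change 0.52 ± 0.07 SE, adjusted p = 0.000824). The other 3 subunits of that complex rose too: Ndc80 1.32-fold to 19.4 ± 0.188 FPKM, Spc25 1.28-fold to 25.8 ± 2.42 FPKM and Spc24 1.11-fold to 25.3 ± 0.654 FPKM. Spc24 lost its call without replicate 2 or 3 labelled aged or replicate 1 or 2 labelled young (limma adjusted p of at most 0.0785). The level of Ndc80 over that of Spc24 was 0.748 to 0.796 in the libraries labelled aged, against 0.629 to 0.659 in those labelled young. Cenpa, the histone H3 variant that marks the centromere, averaged 33.3 ± 1.17 against 26.1 ± 0.644 FPKM. Cenpf, a large kinetochore protein, and Knstrn, a spindle and kinetochore protein, rose 1.24-fold and 1.31-fold. Cenpe, the kinetochore motor that helps chromosomes congress, had 23.9, 27.0 and 26.6 FPKM in the libraries labelled aged and 26.3, 25.4 and 25.4 FPKM in those labelled young, so its groups overlapped (limma adjusted p = 0.941).

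All 6 centrosome and spindle genes rose, and Aurka had the largest fold of the 49. Aurka, the Aurora A kinase of centrosome maturation and spindle assembly (chromosome 2, 172356190 to 172370535, minus strand), had 68.5, 69.8 and 69.9 FPKM in the libraries labelled aged and 35.9, 34.7 and 34.8 FPKM in those labelled young. The log2 fold change was 0.96 ± 0.03 SE by limma (adjusted p = 2.78e-06), a 1.98-fold rise in FPKM. By mean level Aurka ranked 8 of 49 in the libraries labelled aged and 20 of 49 in those labelled young. The level of Aurka over that of its relative Aurkb was 2.03 to 2.11 in the libraries labelled aged, against 0.799 to 0.913 in those labelled young. Tpx2, the protein that activates Aurora A on spindle microtubules, rose 1.33-fold to 83.9 ± 1.40 FPKM.

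Nek2, a kinase that lets centrosomes separate, rose 1.49-fold, and Hmmr, a spindle protein, averaged 30.4 ± 1.01 against 20.3 ± 1.07 FPKM. Plk1, the Polo-like kinase that acts throughout mitosis, averaged 53.5 ± 1.25 against 45.4 ± 1.91 FPKM (limma adjusted p = 0.00215). Plk4, the kinase that starts centriole duplication, had 13.3, 13.2 and 13.3 FPKM in the libraries labelled aged and 12.6, 12.0 and 11.7 FPKM in those labelled young. Its call (limma adjusted p = 0.0248) was lost without any 1 library except replicate 1 labelled young, with p of at most 0.0751.

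**Figure D2:**
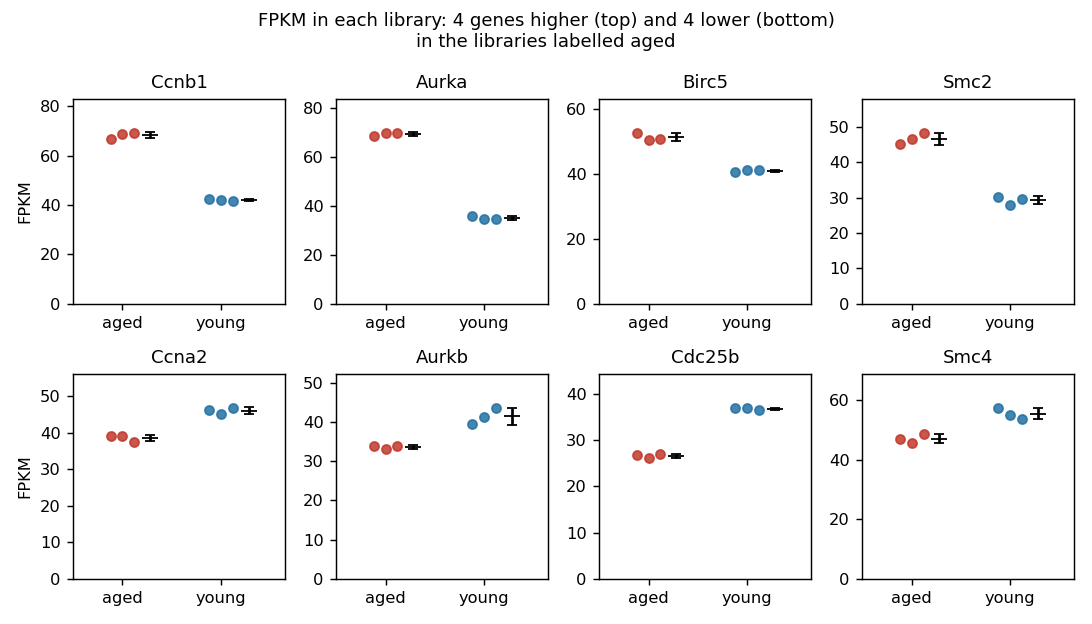
FPKM of 8 genes in each library, with the 3 libraries labelled aged left of the 3 labelled young, and mean and SD beside the points. Ccnb1, Aurka, Birc5 and Smc2 lie higher in the libraries labelled aged and Ccna2, Aurkb, Cdc25b and Smc4 lower, without overlap.

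Genes of chromosome structure went in both directions, 3 higher, 3 lower and 1 not past the threshold. Within condensin I, the ring that compacts mitotic chromosomes, the subunits parted. Smc2, one of its 2 ATPase arms (chromosome 4, 52439243 to 52488260, plus strand), had 45.1, 46.5 and 48.3 FPKM in the libraries labelled aged and 30.1, 28.1 and 29.7 FPKM in those labelled young (limma log2 fold change 0.65 ± 0.04 SE, adjusted p = 2.97e-05). Smc4, the other arm, had 47.0, 45.5 and 48.6 FPKM against 57.5, 55.2 and 53.8 FPKM, all lower in the libraries labelled aged (limma log2 fold change -0.23 ± 0.04 SE, adjusted p = 0.00199). The level of Smc2 over that of Smc4 was 0.958 to 1.02 in the libraries labelled aged, against 0.509 to 0.552 in those labelled young.

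Of the other condensin I subunits, Ncapg rose 1.29-fold and Ncaph 1.10-fold. The call of Ncaph was lost without replicate 1 or 3 labelled aged or replicate 1 or 2 labelled young (limma adjusted p of at most 0.0873). Ncapd2 was lower, at 28.8, 28.1 and 30.8 FPKM in the libraries labelled aged and 33.2, 33.3 and 34.5 FPKM in those labelled young (limma adjusted p = 0.00550, and 0.0893 without replicates 1 and 3 labelled young). Mki67 (Ki-67), which coats mitotic chromosomes and marks cycling cells (chromosome 7, 135689784 to 135716361, minus strand), had 53.9, 52.5 and 56.6 FPKM in the libraries labelled aged and 77.6, 76.4 and 73.9 FPKM in those labelled young. With a log2 fold change of -0.48 ± 0.04 SE (limma adjusted p = 7.66e-05), it had the largest fall of the 49. Top2a, topoisomerase II alpha, which untangles chromosomes, had 112, 118 and 121 FPKM against 119, 114 and 115.5 FPKM. These groups overlapped, and the limma adjusted p was 0.894.

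All 4 genes of anaphase onset rose. Ube2c, the ubiquitin-conjugating enzyme of the anaphase-promoting complex (chromosome 2, 164769898 to 164778822, plus strand), had 71.7, 71.4 and 68.5 FPKM in the libraries labelled aged and 45.5, 46.0 and 48.4 FPKM in those labelled young. It rose 1.51-fold (limma log2 fold change 0.59 ± 0.04 SE, adjusted p = 2.79e-05). Pttg1 (securin), the inhibitor of separase, rose 1.45-fold to 65.8 ± 2.25 FPKM, and Cdc20 rose 1.28-fold to 120 ± 1.61 FPKM. Espl1 (separase), the protease that opens cohesin, had 31.9, 30.9 and 33.6 FPKM in the libraries labelled aged and 28.6, 29.7 and 28.8 FPKM in those labelled young. Its call (limma adjusted p = 0.0189) was lost without replicate 1 or replicate 3 labelled young (p of at most 0.0568) and was 0.229 without both.

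In cytokinesis, 3 of 5 genes rose and 1 fell. Cit (citron kinase), which acts at the midbody, had 5.51, 5.63 and 6.26 FPKM in the libraries labelled aged and 4.67, 4.85 and 4.73 FPKM in those labelled young (limma adjusted p = 0.00877). Ect2, which activates the GTPase RhoA at the division plane, rose 1.17-fold, and Anln (anillin), a scaffold of the contractile ring, 1.15-fold. Prc1, which bundles microtubules of the central spindle, was lower, at 26.0, 26.5 and 28.4 FPKM in the libraries labelled aged and 31.9, 31.2 and 31.4 FPKM in those labelled young (limma log2 fold change -0.22 ± 0.04 SE, adjusted p = 0.00307). Racgap1, the partner of Ect2 at the central spindle, averaged 61.8 ± 1.39 against 65.3 ± 0.952 FPKM and did not pass (limma adjusted p = 0.0613, but 0.0323 without replicate 3 labelled aged and 0.0439 with quantile normalization). The level of Ect2 over that of Racgap1 was 0.458 to 0.483 in the libraries labelled aged, against 0.368 to 0.399 in those labelled young.

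Reads of some of these genes may be shared with neighbours. The span of 12 of the 49 is overlapped by another gene at a mean of at least 1 FPKM, and whether counting used strand is not stated. Ccna2 overlaps Exosc9 on the opposite strand by 863 bases, Ncapg overlaps Lcorl by 3366 bases, and Prc1 lies within the span of Rccd1. Cdca8 overlaps 9930104L06Rik by 2264 bases and Knstrn overlaps Gm14091 by 4249 bases, also on opposite strands. The pseudogene Ccnb1-ps was listed at 2.48 FPKM in the libraries labelled aged and 1.72 FPKM in those labelled young, so how reads of Ccnb1 were split is uncertain.

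Another 122 genes of mitosis were read for comparison, of which 120 were tested. Of these, 54 were higher, 23 lower and 43 did not pass, with a median log2 fold change of 0.11. The shares over all tested genes, for this count and the lists below, were 27.7% higher and 32.3% lower. Among 32 other kinetochore and centromere genes, 21 rose and 2 fell. Cenph, of the inner kinetochore, averaged 49.7 ± 2.74 against 26.3 ± 1.2 FPKM, and Ska3, of a complex that tracks microtubules, 28.5 ± 0.502 against 16.3 ± 0.865 FPKM. Cenpc1, which links centromeric chromatin to the outer kinetochore, was 1.30-fold lower and Knl1, the platform for checkpoint proteins, 1.25-fold lower.

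Of 29 other spindle and centrosome genes, 13 rose and 6 fell, where 27.7% of all tested genes rose and 32.3% fell. Gtse1, a microtubule-binding protein that also restrains p53, averaged 57.2 ± 2.0 against 17.5 ± 0.239 FPKM, and Ckap2, a spindle protein, 93.0 ± 3.07 against 31.7 ± 0.887 FPKM. Both rises exceeded that of any of the 49 genes. Tubg1, gamma-tubulin of the centrosome, was 1.25-fold lower and Pcnt, pericentrin, 1.23-fold lower. Among 27 other checkpoint and mitotic exit genes, 10 rose, with Mastl, the Greatwall kinase, at 1.68-fold and Anapc11, a catalytic subunit of the anaphase-promoting complex, at 1.59-fold, while only Fbxo5 (Emi1), an inhibitor of that complex, fell (1.08-fold lower). In the list of 16 tested other cytokinesis genes, 6 rose and 5 fell, near the shares over all tested genes (27.7% higher and 32.3% lower). Cep55, of the midbody, rose 1.32-fold and Pdcd6ip (Alix) 1.27-fold, whereas Septin11, a filament-forming GTPase, was 1.70-fold lower and Arhgef2, an activator of RhoA, 1.37-fold lower.

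Of 16 cohesin and other condensin genes, 9 fell and 4 rose, with a median log2 fold change of -0.19. Over all tested genes, 32.3% were lower and 27.7% higher. Stag1, a cohesin subunit, had 4.03, 3.98 and 3.91 FPKM in the libraries labelled aged and 11.1, 10.7 and 10.4 FPKM in those labelled young (limma log2 fold change -1.24 ± 0.04 SE, adjusted p = 3.73e-06). Smc3, an arm of the cohesin ring, was 1.48-fold lower at 21.2 ± 0.665 against 31.4 ± 0.735 FPKM. Cdca5 (sororin), which protects cohesin until mitosis, rose 1.53-fold, and Ncapg2, of condensin II, 1.22-fold. Whether any of these lists differs from the others was not tested.

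**Figure D3:**
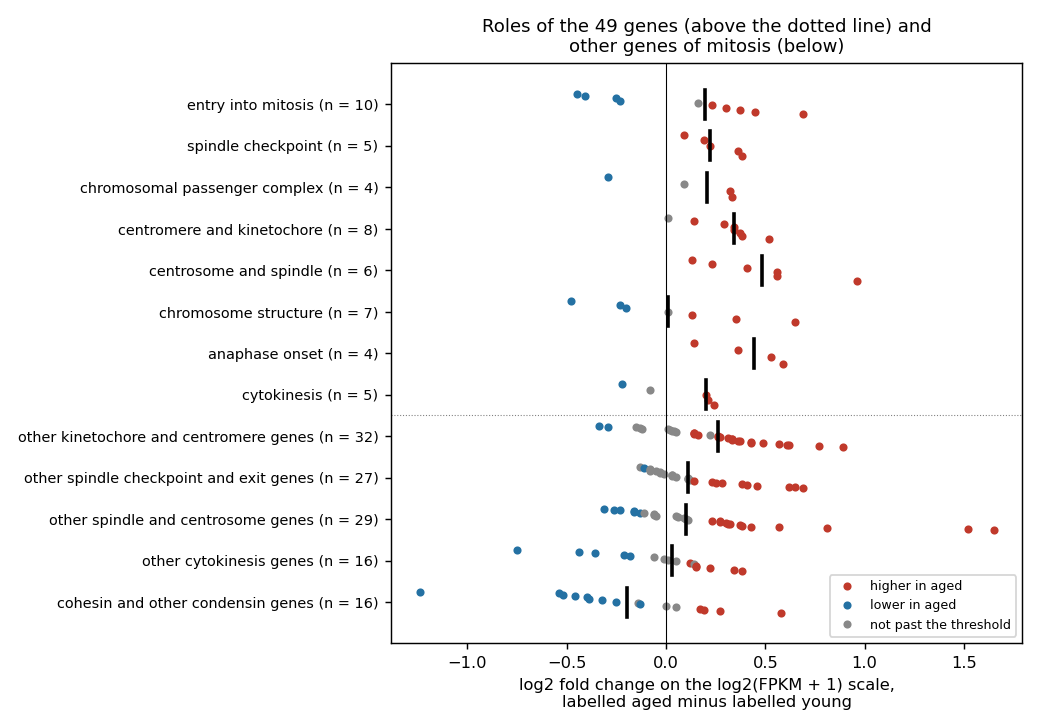
Log2 fold change of each tested gene on the log2(FPKM + 1) scale, labelled aged minus labelled young, for the 8 roles of the 49 genes and for 5 lists of other mitosis genes, with each row's median as a bar. Medians run from 0.48 for centrosome and spindle genes to -0.19 for cohesin and other condensin genes.

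Of 16 regulators of mitotic genes, 4 were higher, 3 lower and 9 did not pass, beside shares of 27.7% higher and 32.3% lower over all tested genes. Foxm1, the transcription factor that activates late cell cycle genes, had 26.3, 25.5 and 25.9 FPKM in the libraries labelled aged and 25.1, 24.1 and 23.5 FPKM in those labelled young. It did not pass (limma adjusted p = 0.0622), although its values did not overlap. Mybl2 (B-Myb), its partner on promoters with the homology region, had 25.0, 24.9 and 24.0 FPKM against 17.3, 17.5 and 19.2 FPKM (limma adjusted p = 0.000248). Lin54, named here after its value was seen because it binds that region, rose 1.23-fold (limma adjusted p = 0.000868).

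Rbl1 (p107), a pocket protein that represses E2F targets, was 1.19-fold lower, and Nfyc, a subunit of NF-Y, 1.28-fold lower. Trp53 (p53) had 80.3, 77.9 and 73.6 FPKM in the libraries labelled aged and 36.9, 39.9 and 40.7 FPKM in those labelled young. Cdkn1a, the p53 target p21, which inhibits cyclin-dependent kinases, had 84.4, 87.5 and 84.7 FPKM against 14.6, 14.3 and 15.9 FPKM (limma log2 fold change 2.44 ± 0.05 SE, adjusted p = 1.11e-06). The libraries with the higher Cdkn1a were thus also those with the higher Ccnb1 and Aurka and the lower Mki67, and no relation between these genes was tested.

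**Figure D4:**
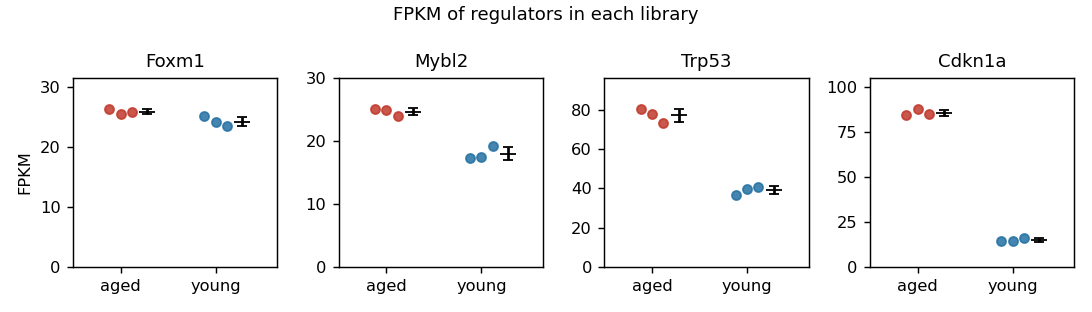
FPKM of Foxm1, Mybl2, Trp53 and Cdkn1a in each library, with the 3 libraries labelled aged left of the 3 labelled young, and mean and SD beside the points. Cdkn1a lies between 84.4 and 87.5 FPKM in the libraries labelled aged and between 14.3 and 15.9 FPKM in those labelled young. The values of Foxm1 lie close together, with every library labelled aged above every library labelled young.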

How the data were processed

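RNA of 6 libraries, 3 labelled aged and 3 labelled young, was sequenced on an Illumina NovaSeq instrument and read pairs were aligned with HISAT2 2.0.5, per the labels' protocols, to mm10, per the submitters' processing notes. Which counter and annotation were used, and whether strand was, is not stated in the labels. The authors deposited FPKM values for 54532 genes. In every library 100% of values above 0, times gene length, were whole multiples of 1 step within 0.01, so whole reads could be recovered, and such reads speak only to counting error. Symbols turned into dates by a spreadsheet, 27 in all, were restored from identifiers.

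Values were transformed to log2(FPKM + 1), and genes at 0.5 FPKM or more in at least 3 of 6 libraries were tested with limma 3.58.1 in R 4.3.3 (linear model on group, mean-variance trend, 2-sided p, Benjamini-Hochberg adjustment over 15197 genes, threshold 0.05). That scale understates changes of low genes. Folds are ratios of mean FPKM. The script was tested on simulated reads. Replicates were not within sampling noise of one another (chi-square per degree of freedom 2.25 to 4.93 within a group). The members and lists were chosen with earlier results of these data known. Values in each library are given for the highest and lowest member of each role and for all called lower members, and for Top2a and Stag1 after their values were seen; in other lists the 2 largest called changes each way are named, with Foxm1, Mybl2, Trp53 and Cdkn1a. Sequences are from RefSeq (GRCm38.p6). Python 3.11.15 and matplotlib 3.10.9 did the rest. Alternatives changed 1 choice at a time: pseudocount, filter, scaling, moderation, voom on recovered reads, replicate block, left-out libraries and threshold.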

Additional observations from a re-analysis of the deposited data

How the results depend on the processing

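Under 19 alternatives, the counts of the 49 genes that were higher or lower stayed within 1.5 times the values given, as did those of the other mitosis genes and of all tested genes. The median log2 fold change of the 49 genes, 0.23, was 0.30 with median centring, 0.26 with quantile normalization, 0.26 after rescaling to TPM and 0.23 to 0.25 with 1 library left out. Median centring moved the median of all tested genes as well, to 0.0386 against -0.0273, and turned their balance to 4988 higher and 4026 lower, against 4212 higher and 4903 lower. Without replicates 1 and 3 labelled young, an alternative chosen after seeing the data, it was 0.25, and 12 of the 44 called genes lost their call; the lone library labelled young was then assumed to vary like the others, and fewer libraries were used. Of the 44, 39 kept their call whichever library was left out, and how many of all called genes did so was not counted. With 1 library left out, 3764 to 4030 of all tested genes were called higher and 4363 to 4678 lower. The log2 fold change of Top2a was -0.011 with quantile normalization and ran from -0.017 to 0.037 with 1 library left out, and Cenpe from -0.028 to 0.059, neither called in any of these; the cause was not tested. The voom fit of recovered reads called 35 higher and 9 lower, with Bub1b lost and Cdc25a gained, and 4399 higher and 5111 lower over all tested genes. With the replicate number as a block, 32 were higher and 9 lower, and 3927 higher and 4514 lower over all tested genes. Deviations of same-numbered libraries correlated at -0.0079 to 0.0192, within the -0.0402 to 0.036 of libraries with different numbers. Such a correlation over all tested genes cannot show whether they shared more than a number. Each of the 49 genes had at least 371 recovered reads in every library, and what more depth would change was not tested.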
